A study of Mus musculus with 8 samples.

Results

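The Hox cluster genes were taken as all probes of the deposited signal table whose platform gene symbol is Hox, a cluster letter from a to d and a paralogue number. This gave 57 probes of 38 genes, among 19057 named genes on the array. The arrays measured RNA of adipose progenitors from the epididymal white adipose tissue, the fat pad beside the testis, of lean C3H mice (C3H/HeOuJ in the series title) aged 3 months, and every sample title carries the word CHOW. Both fractions were freed with collagenase and sorted by flow cytometry as CD45- CD31- Gp38+ PDGFRa+ stromal cells, a gate that leaves out leukocytes and endothelial cells. The CD9high fraction and the CD9low fraction, separated by the surface tetraspanin CD9, had 4 samples each. The titles and cell type labels give the fractions, while another label and the gate text name high CD9 for both. Nothing in the labels says whether samples were single animals or pools, so the p-values rest on the spread among these samples, which may be technical. In bulk samples, fewer cells of a type and less RNA per cell cannot be told apart.

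Hox genes encode transcription factors with a homeodomain. They lie in 4 clusters on separate chromosomes, and genes at the same place in each cluster, the paralogues, share a number. During development the genes of low number are used towards the head and those of high number towards the tail and in limbs and genital structures. Adult fibroblasts and fat precursors keep a Hox pattern that differs between body regions and fat depots.

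Hoxd8, the 1 Hox gene that passed the test between the fractions, lies in the Hoxd cluster on chromosome 2 beside Hoxd9, which did not pass and is the other detected Hoxd gene. Both are shown by the 250 bases before their start, together with Hoxd10 and Hoxd3, the nearest Hox genes on either side by RefSeq start. The probes of Hoxd10 and Hoxd3 gave no signal above background. Hoxd4, which overlaps Hoxd3 and comes next to Hoxd8 by number, was detected on 2 CD9high and 0 CD9low arrays. Sequences are those of RefSeq, build GRCm38.p6, plus strand, at chr2:74691641-74691890 (Hoxd10), chr2:74697513-74697762 (Hoxd9), chr2:74704365-74704614 (Hoxd8) and chr2:74711743-74711992 (Hoxd3). Capitals mark CpG dinucleotides, the sites of DNA methylation, in which many Hox promoters are rich.
Hoxd10: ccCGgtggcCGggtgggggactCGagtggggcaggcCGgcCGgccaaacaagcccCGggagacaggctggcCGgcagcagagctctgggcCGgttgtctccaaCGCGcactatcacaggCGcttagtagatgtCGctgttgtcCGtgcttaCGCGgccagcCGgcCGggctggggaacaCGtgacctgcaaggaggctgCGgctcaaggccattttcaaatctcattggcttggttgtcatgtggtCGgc
Hoxd9: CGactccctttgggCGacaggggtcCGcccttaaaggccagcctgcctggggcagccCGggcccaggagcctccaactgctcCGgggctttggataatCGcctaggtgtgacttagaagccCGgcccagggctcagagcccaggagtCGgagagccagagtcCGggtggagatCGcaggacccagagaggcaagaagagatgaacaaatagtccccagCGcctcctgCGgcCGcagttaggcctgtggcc
Hoxd8: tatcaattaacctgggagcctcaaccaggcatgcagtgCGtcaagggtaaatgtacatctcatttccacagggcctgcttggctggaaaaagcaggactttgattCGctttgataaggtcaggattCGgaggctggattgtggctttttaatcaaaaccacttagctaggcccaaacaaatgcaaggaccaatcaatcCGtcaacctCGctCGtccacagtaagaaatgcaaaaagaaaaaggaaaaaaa
Hoxd3: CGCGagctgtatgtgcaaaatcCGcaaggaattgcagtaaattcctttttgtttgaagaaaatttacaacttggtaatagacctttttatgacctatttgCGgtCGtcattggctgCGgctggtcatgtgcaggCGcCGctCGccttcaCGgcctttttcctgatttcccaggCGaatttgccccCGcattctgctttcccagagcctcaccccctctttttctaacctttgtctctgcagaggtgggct
The windows hold 20 CpG in Hoxd10, 13 in Hoxd9, 6 in Hoxd8 and 12 in Hoxd3, where the median over 32817 RefSeq windows of the same length is 6. GC content is 65.6%, 65.2%, 44.4% and 49.2% in the same order, against a median of 52.4%. On either strand, none of the 4 holds the letters TGATNNAT, bound by PBX and HOX proteins together (found in 7.69% of all windows), TGACAG, bound by MEIS and PKNOX proteins (15.9%), the homeodomain core TAATTA (4.85%) or the TATA box TATAAA (12.4%). Matches of different motifs were counted separately and may share bases. Their lack in these windows says nothing of the factors.

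A Hox gene counted as detected when a probe of it had a detection p under 0.05 on at least 4 of 8 arrays. The detection p is the share of negative control beads at least as bright as the probe. By this rule 21 of 38 Hox genes were detected (55.3%), against 10724 of 19057 named genes (56.3%). A probe can be weak for its own reasons, so an undetected gene is one whose probes stayed at background.

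The detected genes formed runs along the clusters. In Hoxa, on chromosome 6, 8 of 10 genes with a probe were detected, and 7 of them, Hoxa2 to Hoxa9, are consecutive. Hoxa11, which in mice patterns the forearm and kidney together with its paralogues, lay outside that run, beyond the undetected Hoxa10. In Hoxb, on chromosome 11, the 6 consecutive genes Hoxb2 to Hoxb7 were detected, and Hoxb1, Hoxb8, Hoxb9 and Hoxb13 were detected on 0 of 8 arrays. In Hoxc, on chromosome 15, the 5 consecutive genes Hoxc5 to Hoxc10 were detected. Hoxc11, Hoxc12 and Hoxc13 were above background on 0 arrays. Hoxd had the fewest, 2 of 9 genes, the neighbours Hoxd8 and Hoxd9. Its members Hoxd1, Hoxd3, Hoxd10, Hoxd11, Hoxd12 and Hoxd13 were above background on 0 of 8 arrays.

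By paralogue number, the detected share was greatest in the middle of the clusters. Of paralogues 5 to 9, 13 of 15 genes were detected, against 6 of 11 with a probe among paralogues 1 to 4 and 2 of 12 among paralogues 10 to 13. Every gene of paralogue groups 2, 5, 6 and 7 with a probe was detected, and no gene with a probe of groups 1, 12 and 13. The 2 detected genes of high number were Hoxc10, known from subcutaneous fat, and Hoxa11. In all, 12 genes were detected on all 8 arrays and 13 on 0 arrays.

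**Figure D1:**
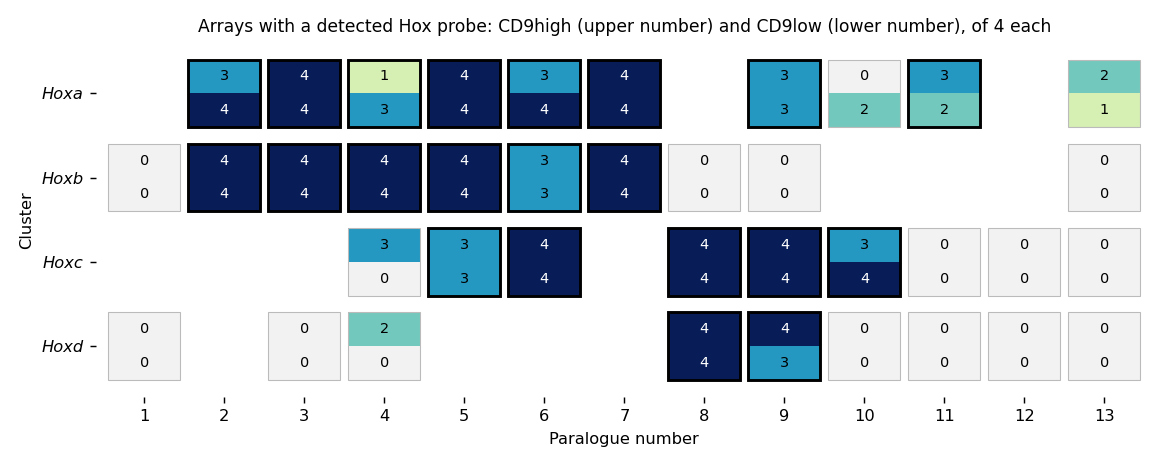
Number of arrays, of 4 per fraction, on which the best detected probe of each Hox gene was above background (detection p under 0.05), by cluster (rows) and paralogue number (columns); the upper number in a box is CD9high, the lower CD9low, darker means more arrays, and a heavy frame marks the 21 detected genes. Only genes with a probe have a box. Of paralogues 5 to 9, Hoxb8 and Hoxb9 were not detected and the other 13 genes were, which in Hoxd are paralogues 8 and 9.

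Near the detection threshold the fractions were not alike for a few dim genes. Just inside it, 1 CD9high and 3 CD9low arrays detected the single Hoxa4 probe, and 3 CD9high and 2 CD9low arrays that of Hoxa11. Just outside it, Hoxc4 was detected on 3 CD9high arrays and 0 CD9low arrays, and Hoxd4 on 2 and 0. The best probe of Hoxa13, a gene of digit and genital development, passed on 2 CD9high arrays and 1 CD9low array, and that of Hoxa10 on 0 and 2. Normalized log2 intensities of Hoxc4 were 5.09, 5.16, 4.58 and 5.54 in CD9high replicates 1 to 4 and 4.33, 4.26, 4.28 and 4.76 in CD9low. Set against the dimmest detected signal of the CD9low arrays, the CD9high mean of Hoxc4 gave a lower bound of 1.24-fold, without an error or a test. That mean includes CD9high replicate 3, a background reading of 4.58 that lay under the 4.76 of CD9low replicate 4. For that bound, each CD9low array entered with the higher of its dimmest detected signal and its own Hoxc4 signal. The same bound was under 1 for Hoxd4 and Hoxa10, for which no fold is given. None of these 4 genes outside the threshold entered the test.

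Of the 21 Hox genes tested between the fractions, 1 rose in CD9high and 0 fell, while 20 did not pass. All differences are CD9high over CD9low on the log2 scale, from limma with Benjamini-Hochberg adjustment over 10724 genes and a threshold of 0.05. Over all genes tested 1.69% passed, 1.13% higher and 0.559% lower in CD9high. At an unadjusted p under 0.05 stood 4 of 21 Hox genes (19.0%), all higher in CD9high, and 0 lower, against 10.7% of all genes. The fractions did not overlap for 3 of 21 Hox genes (14.3%), all higher in CD9high, against 7.69% of all genes, 3.92% higher and 3.78% lower in CD9high. The median difference of the 21 genes was 0.15 and 12 were above 0. Over all genes tested the median was -0.04, with 45.6% above 0. The counts describe genes that passed a filter on detection, and with 21 genes a single call is 4.76% of them.

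Hoxd8, a gene of the middle of the Hoxd cluster, rose in CD9high. Its intensities were 9.39, 9.96, 9.22 and 8.97 in CD9high replicates 1 to 4 and 7.89, 7.10, 8.32 and 7.62 in CD9low. The fractions did not overlap, and CD9low replicate 2 was the lowest array. The mean was 9.38 ± 0.42 in CD9high and 7.73 ± 0.51 in CD9low (SD, n = 4 each), a difference of 1.65 (SE 0.31, 95% interval 0.96 to 2.34, limma adjusted p = 0.0301) or 3.14-fold. The probe was above background on all 8 arrays.

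The call on Hoxd8 rests on most of the arrays together. It was lost without CD9high replicate 1 (adjusted p = 0.108), 2 (0.0722) or 3 (0.0853) and without CD9low replicate 1 (0.0738) or 4 (0.0977). Leaving out both arrays of replicate 1 (0.219), replicate 3 (0.114) or replicate 4, which leaves slide 1 alone (0.128), ended the call as well. With the filter on detection removed the adjusted p was 0.0766, and with replicate number as a block it was 0.119. The difference itself lay between 1.22, without replicate 2 (adjusted p = 0.0324), and 1.93, without replicate 3, under the 23 alternatives run. Replicate 2 held the highest CD9high and the lowest CD9low array for Hoxd8, and the fewest detected probes of each fraction. The constant sign of the difference carries no weight, since the fractions did not overlap and leaving out arrays could hardly change it. Alternatives that change only the filter, the variance trend or a block leave the difference as it was. The Hoxd8 difference was 1.75 on slide 1, which carried replicates 1 to 3, and 1.35 on slide 2. Slide 2 carried replicate 4 of each fraction and allows no test.

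Hoxd9, the neighbour of Hoxd8 on the tail side and in mice a gene of the forelimb and trunk, did not pass. It had intensities of 7.94, 8.37, 7.69 and 6.56 in CD9high replicates 1 to 4 and 5.84, 4.67, 6.59 and 5.97 in CD9low. CD9high replicate 4 and CD9low replicate 3 lay within 0.1 of each other and the fractions overlapped there. The mean was 7.64 ± 0.77 in CD9high and 5.77 ± 0.80 in CD9low (SD, n = 4 each), a difference of 1.87 (SE 0.46, 95% interval 0.86 to 2.89, adjusted p = 0.0858). On CD9low replicate 2 the probe was at background. A second probe was above background on 4 CD9high and 2 CD9low arrays, so its difference of 1.12 (SE 0.29, adjusted p = 0.120 in a fit of single probes) rests partly on background readings. The Hoxd9 difference was 2.30 on slide 1 and 0.59 on slide 2. Over the 23 alternatives it lay between 1.25, without replicate 2 (adjusted p = 0.164), and 2.28, on slide 1 alone (adjusted p = 0.103). The adjusted p reached 0.426 without replicate 1, and passed only without CD9high replicate 4, at 0.0398 with a difference of 2.21.

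**Figure D2:**
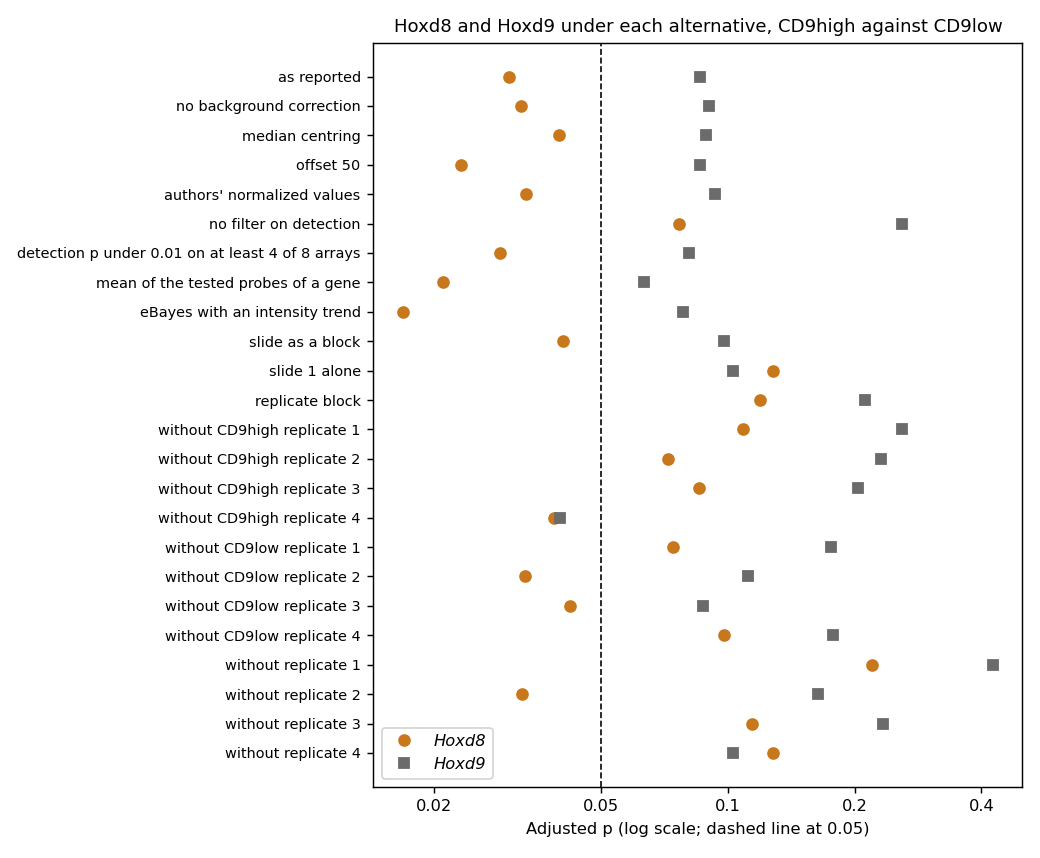
Adjusted p of Hoxd8 (circles) and Hoxd9 (squares) for CD9high against CD9low, as reported and under each of 23 alternative analyses (rows), on a log axis with the threshold of 0.05 dashed. Hoxd8 lies left of the line as reported and in 12 of the alternatives, Hoxd9 in 1.

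Of other transcripts in and beside the Hoxd cluster, Lnpk was tested and did not pass. Hoxd3os1, which overlaps the undetected Hoxd3 in RefSeq, was detected on 3 CD9high arrays and 0 CD9low arrays. Its intensities were 5.56, 4.63, 5.03 and 5.20 in CD9high replicates 1 to 4 and 4.36, 4.55, 4.40 and 4.39 in CD9low, and it was not tested. Its CD9low values and that of CD9high replicate 2 are background readings and have no order. Lnpk, a flanking gene that shapes the endoplasmic reticulum, differed by -0.40 (SE 0.25, adjusted p = 0.619). Mtx2, on the other flank, was detected on 1 CD9high array and 0 CD9low arrays. In the RefSeq annotation Hoxd8 overlaps the noncoding gene Gm38462, and 13 of the 21 tested Hox genes overlap some other gene. Which strand and which of the overlapping transcripts a probe reads was not checked.

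In the Hoxb cluster, 2 genes had fractions that did not overlap, and neither passed the test. Hoxb5, known in mice from the shoulder girdle and from blood stem cells, had intensities of 9.42, 10.31, 9.64 and 9.74 in CD9high replicates 1 to 4 and 8.84, 9.04, 8.86 and 9.22 in CD9low. The lowest CD9high array stood above the highest CD9low array. The means were 9.77 ± 0.38 in CD9high and 8.99 ± 0.18 in CD9low (SD, n = 4 each), a difference of 0.78 (SE 0.24, 95% interval 0.24 to 1.33, adjusted p = 0.213).

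Hoxb3, a gene of the hindbrain and pharyngeal arches in mice, had intensities of 7.05, 8.53, 6.37 and 6.62 in CD9high replicates 1 to 4 and 6.02, 6.31, 6.35 and 5.91 in CD9low. CD9high replicate 2 stood well above its own fraction, and CD9high replicate 3 barely above the CD9low arrays. The difference was 0.99 (SE 0.42, 95% interval 0.072 to 1.92, adjusted p = 0.426), and 0.53 without CD9high replicate 2. All 4 of its tested probes were higher in CD9high, by 0.44 to 0.99, but they disagree on the arrays. In deposited signal, CD9high replicate 2 was the highest array on the reported probe (350). On the other probes it was the lowest CD9high array (19.5, 8.5 and 38.6), and CD9low replicate 2 was at background. The probe with the smallest difference was above background on 3 CD9high arrays and 1 CD9low array. In RefSeq Hoxb3 overlaps Hoxb4, which differed by -0.17 (SE 0.38). The other Hoxb members Hoxb2, Hoxb6 and Hoxb7 differed by 0.19, 0.30 and 0.21.

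Hoxb6 and Hoxb7, genes of the thoracic region in mice, show how far single arrays reach. Hoxb6 had 5.54, 4.44, 5.24 and 6.39 in CD9high replicates 1 to 4 and 5.23, 5.64, 4.92 and 4.61 in CD9low, with a difference of 0.30 (SE 0.39, adjusted p = 0.827). Its CD9high arrays spanned the whole range of the CD9low arrays. The lowest reading of each fraction, CD9high replicate 2 and CD9low replicate 4, was at background, so the lower ends have no order. Hoxb7 had 6.96, 6.97, 7.41 and 8.03 in CD9high and 6.99, 7.18, 6.84 and 7.51 in CD9low. Hoxb7 differed by 0.21 (SE 0.29, adjusted p = 0.839), and by 0.77 (SE 0.37) on a second probe, which had an adjusted p of 0.552 in the fit of single probes.

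**Figure D3:**
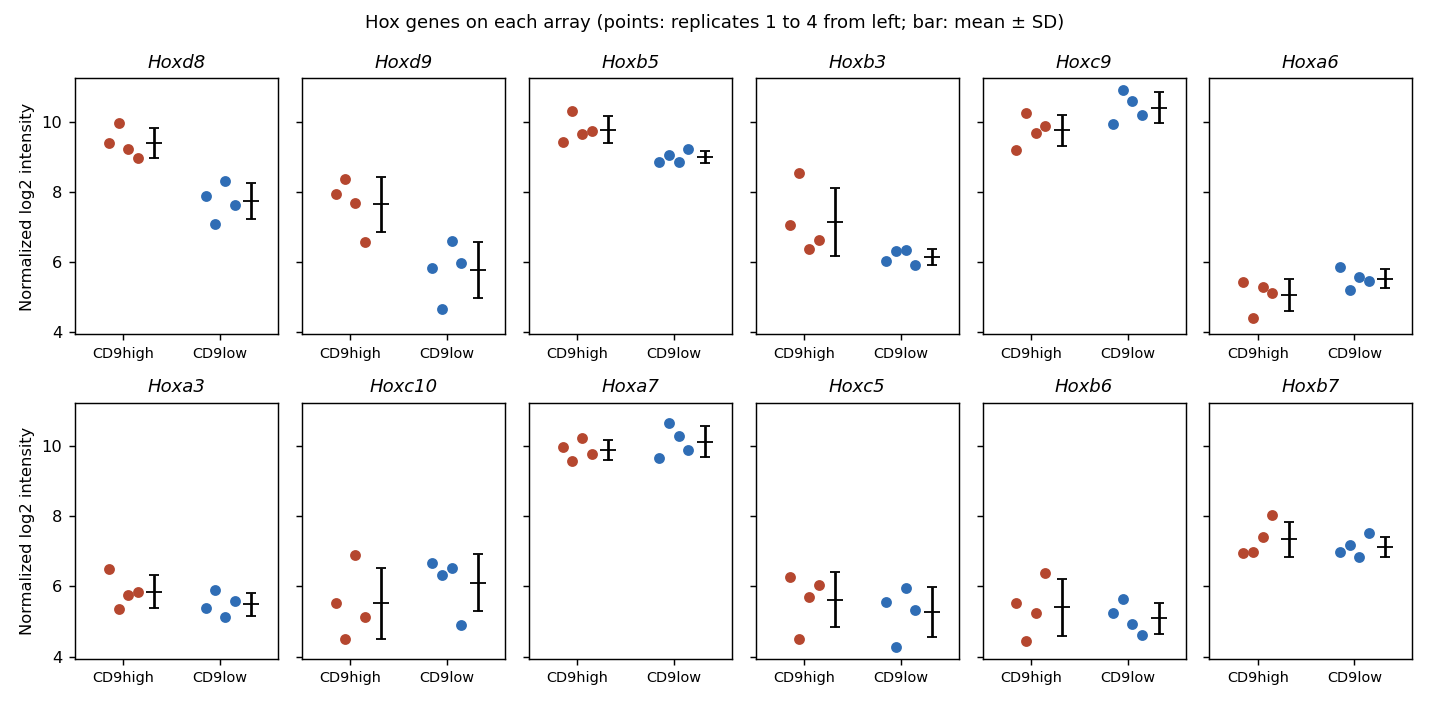
Normalized log2 intensity on each array for the 12 Hox genes named by rule, in order of p; points are replicates 1 to 4 from left to right in CD9high (red) and CD9low (blue), and bars are the mean ± SD. For Hoxd8, Hoxb5 and Hoxb3 every CD9high array lies above every CD9low array, and for the other 9 the fractions overlap.

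In the Hoxc cluster, the largest difference was that of Hoxc9, a gene widely used as a marker of white fat. Hoxc9 had intensities of 9.19, 10.24, 9.68 and 9.88 in CD9high replicates 1 to 4 and 9.92, 10.90, 10.60 and 10.18 in CD9low. Replicate 2 was the highest array of both fractions, and the fractions overlapped. The difference was -0.65 (SE 0.30, 95% interval -1.31 to 0.0071, adjusted p = 0.476). It lay between -0.82 and -0.46 over the 23 alternatives, which reuse these arrays, so its constant sign carries no weight.

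Hoxc10 had 5.54, 4.52, 6.91 and 5.12 in CD9high and 6.66, 6.33, 6.54 and 4.92 in CD9low, and differed by -0.59 (SE 0.52, adjusted p = 0.739). CD9high replicate 2 was at background on this probe, and the difference was -0.25 without that array and -1.04 without CD9high replicate 3. A second Hoxc10 probe differed by 0.11 (SE 0.27), so the probes disagree in sign. Hoxc5 had 6.27, 4.52, 5.69 and 6.03 in CD9high and 5.55, 4.27, 5.95 and 5.34 in CD9low, and differed by 0.35 (SE 0.44, adjusted p = 0.818). On both replicate 2 arrays Hoxc5 was at background, the lowest reading of each fraction. Hoxc6 and Hoxc8, genes of the thoracic region in mice, differed by -0.028 (95% interval -0.54 to 0.48) and -0.039 (-0.56 to 0.48).

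No Hoxa gene passed the test, and the 8 tested differed by between -0.47 and 0.37. Hoxa6 had 5.43, 4.41, 5.28 and 5.12 in CD9high replicates 1 to 4 and 5.87, 5.20, 5.59 and 5.45 in CD9low. Its difference was -0.47 (SE 0.27, 95% interval -1.08 to 0.14, adjusted p = 0.602). CD9high replicate 2 was at background for Hoxa6, and the difference was -0.25 without that array and -0.60 without CD9high replicate 1. Its fractions overlapped, since CD9high replicates 1 and 3 lay above CD9low replicate 2.

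Hoxa3, needed in mice for the thymus and parathyroid, had 6.49, 5.35, 5.76 and 5.83 in CD9high and 5.38, 5.89, 5.12 and 5.57 in CD9low, and differed by 0.37 (SE 0.29, adjusted p = 0.704). In RefSeq it overlaps Hoxa4, Hoxa5 and Hoxa6. Hoxa7 had 9.98, 9.57, 10.24 and 9.78 in CD9high and 9.67, 10.67, 10.28 and 9.89 in CD9low, and differed by -0.24 (SE 0.27, adjusted p = 0.801). Hoxa5, which in mice is required for lung development, differed by -0.09, with a 95% interval of -0.58 to 0.40.

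For Hoxa11 and Hoxa2 the probes reported here could show little. Hoxa11, at 5.33 ± 0.97 in CD9high and 5.16 ± 1.17 in CD9low (SD, n = 4 each), differed by 0.16 (SE 0.60). The 95% interval of Hoxa2, a gene of the second pharyngeal arch, was -1.07 to 1.18. Outside the rule for named genes were 9 tested Hox genes, Hoxa2, Hoxa4, Hoxa5, Hoxa9, Hoxa11, Hoxb2, Hoxb4, Hoxc6 and Hoxc8. On their brightest tested probes they differed by -0.17 to 0.19 with SE of 0.22 to 0.60 and limma adjusted p of 0.877 to 0.982. In the fit of single probes, a second Hoxa2 probe differed by 0.36 (SE 0.31) and a second Hoxa9 probe by -0.36 (SE 0.37). Of the 21 tested, 10 averaged below 6 on the log2 scale, where the offset of 16 compresses differences.

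**Figure D4:**
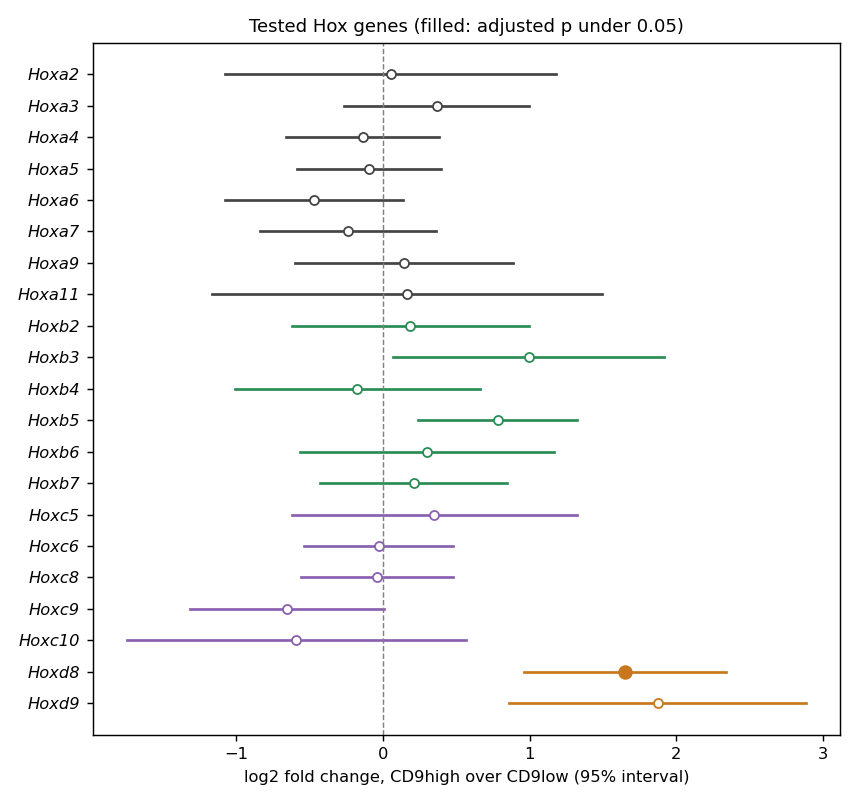
log2 fold change of CD9high over CD9low (point) with its 95% interval (line) for each of the 21 tested Hox genes, by cluster in colour; the filled point passed an adjusted p of 0.05. Hoxd8 and Hoxd9 lie furthest from 0, at 1.65 and 1.87, and the intervals of Hoxb5 and Hoxb3 also leave out 0.

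Genes for proteins that work with or upstream of Hox genes were also tested. Listed with them were the ParaHox genes and other transcripts in and beside the Hox clusters. Of 77 listed genes 50 were tested with limma, 0 rose or fell, where 1.69% of all genes passed, and 3 (6%) had an unadjusted p under 0.05, against 10.7% of all genes. With 50 genes, 0 calls is close to the share over all genes. Among the TALE cofactors, homeodomain partners that bind DNA with Hox proteins, 0 of 8 passed. Meis1 had the smallest p of all 50, at 8.39 ± 0.34 in CD9high and 9.15 ± 0.27 in CD9low (SD, n = 4 each), and differed by -0.76 (SE 0.25, adjusted p = 0.246). It was the 1 of these 50 genes without overlap between fractions (2%), against 7.69% of all genes. Pknox1 differed by 0.48 (SE 0.27, adjusted p = 0.594) and Meis2 by -0.34 (SE 0.31, adjusted p = 0.747).

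Among 10 tested trithorax genes and H3K27 demethylases, which keep Hox genes active, 0 passed. Psip1, whose product tethers the MLL complex to chromatin, differed by 0.85 (SE 0.35, adjusted p = 0.424), Kmt2a, the MLL methyltransferase gene, by -0.47 (SE 0.35) and Kmt2b by -0.41 (SE 0.36). Of 20 tested Polycomb genes, which keep Hox genes silent, 0 passed, and Jarid2, Rbbp7 and Rbbp4 differed by -0.46, 0.59 and 0.38 with adjusted p of 0.525, 0.610 and 0.638. Upstream axial regulators held 0 of 8 past the test. Aldh1a2, the retinoic acid synthesis enzyme gene, differed by 0.66 (SE 0.27, adjusted p = 0.420), Cyp26b1, which degrades retinoic acid, by 0.29 (SE 0.24) and Rarg, a retinoic acid receptor gene, by 0.12 (SE 0.26). The remaining transcripts of the Hox clusters and their flanks had 0 of 4 past the test, Cbx5 differing by 0.47 (SE 0.47) and Snx10 by -0.35 (SE 0.48). Of the ParaHox genes Pdx1, Gsx1 and Gsx2, 0 of 3 were detected on enough arrays.

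Of the sorting genes, Cd9 rose by 3.63 (SE 0.28, adjusted p = 0.000187). Pdgfra differed by 0.10, Pdpn, which encodes Gp38, by -0.05, Ptprc (CD45) by -0.18 and Pecam1 (CD31) by -0.40, and these did not pass. Between 41.1% and 51.1% of probes were detected per array, least on replicate 2 of both fractions, which also had the fewest Hox probes, 21 in CD9high and 18 in CD9low, against 27 to 31 on the other 6 arrays. All 9 progenitor markers with a probe were tested and 0 passed. 

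Markers of other cells held 0 calls in any list. Summed normalized intensity, in the authors' table, of pericyte and smooth muscle markers was 3267 to 4212 in CD9high and 4055 to 6126 in CD9low, with 1 of 10 tested differences above 0. Mesothelial markers summed to 142.7 to 310.0 in CD9high and 92.8 to 210.6 in CD9low, with 3 of 3 above 0 and Krt19 and Upk1b on 0 arrays. Markers of epididymal epithelium, which lies beside this fat pad and which a Gp38+ PDGFRa+ gate would leave out, summed to 41.8 to 624.6 in CD9high and 63.8 to 816.0 in CD9low, with 2 of 12 markers tested, 0 above 0, and Lcn5, Rnase10, Spink11, Ovch2 and Pate4 on 0 arrays. Leukocyte markers summed to 603.7 to 4640 in CD9high and 400.5 to 5863 in CD9low, endothelial markers to 1298 to 2065 and 1158 to 3960, and adipocyte markers, with Plin1 and Retn on 0 arrays, to 1317 to 2780 and 2083 to 3839. Other members of these lists were above background, the mesothelial Upk3b and the adipocyte Lep and Fabp4 on 4 arrays of each fraction. The epididymal Lcn8 was above background on 2 CD9high and 3 CD9low arrays. Fabp4 differed by -0.72 (SE 0.29, limma adjusted p = 0.395). Above 0 were 1 of 6 leukocyte, 1 of 8 endothelial and 1 of 6 adipocyte markers tested. Their part in the Hoxd8 difference was not tested.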

How the data were processed

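Per the labels' protocols, RNA of 4 CD9high and 4 CD9low samples was amplified (Ovation Pico WTA), labelled with biotin and read on Illumina mouse arrays of 45281 probes. The authors deposited signal intensity and a detection p-value per probe and array. The submitters' processing notes name GenomeStudio without a version. As deposited, intensity values were already background-subtracted and not normalized between arrays; a second deposited intensity table, near identical in distribution across arrays, served as an alternative. Platform annotation gave 1 symbol for 34885 probes, several for 18 and none for 10378.

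limma 3.58.1 in R 4.3.3 was used: neqc (normexp background from the detection p-values, offset 16, quantile normalization, log2), probes with a detection p under 0.05 on at least 4 of 8 arrays, the brightest tested probe per gene, lmFit and eBayes with no block, and Benjamini-Hochberg adjustment over 10724 genes. The fit was tested on simulated data. Where arrays were left out, the filter asked for 50% or more of those kept. Precision is limited by having 4 arrays a fraction. The members and lists were chosen with earlier results of these data known. Named by rule were Hox genes past the test, those whose fractions did not overlap, the 2 with the smallest p in each cluster and the next until 12, plus the 3 smallest p in each regulator list. Alternatives covered background, normalization, offset, filter, probe choice, variance trend, slide, replicate block and single arrays. Same-numbered samples of the fractions correlated across genes, as deviations from the fraction means, by 0.22, -0.10, 0.18 and 0.16 for replicates 1 to 4. These values do not settle whether the numbers mark pairs, and the labels do not say. The fit reported took the samples as unpaired.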

Additional observations from a re-analysis of the deposited data

Results flagged for a closer look

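Dixon's gap test was applied to the 4 arrays of each fraction for the 21 tested Hox genes, 42 tests in all, of which chance flags about 1 in 20. It singled out 2 values. Hoxb4 read 6.79 on CD9low replicate 2, where the other CD9low arrays lay between 5.45 and 5.54. Hoxa4 read 5.01 on CD9high replicate 4, where the other CD9high arrays lay between 4.53 and 4.61; it was the only CD9high array with that probe above background.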

How the results depend on the processing

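Hoxd8 and Hoxd9 stayed above 0 in all 23 alternatives, which could hardly go otherwise with fractions so little overlapping. Slide 1 alone and leaving out replicate 4 are the same fit. The count of Hox genes higher in CD9high was 0 with no filter on detection, 0 on slide 1 alone and 0 with a replicate block, and ranged from 0 to 2 when single arrays or replicate numbers were left out; the second gene was Hoxd9, without CD9high replicate 4. Without CD9low replicate 2 or 3 or CD9high replicate 4 the Hoxd8 call held, with adjusted p of 0.0330, 0.0421 and 0.0386. Under the replicate block Hoxd8 had an adjusted p of 0.119. The titles give the fractions the same numbers without saying what they share, and 3 of 4 same-numbered pairs correlated above 0.1. CD9high replicates 1 and 3 correlated best with the CD9low sample of their own number, and replicates 2 and 4 with another. The Hox count lower in CD9high was 0 in every alternative, as were the counts of the listed cofactors, regulators and other cluster transcripts. Of all genes, 35 were higher and 14 lower on slide 1 alone, 56 and 20 with the replicate block, and 14 to 183 and 3 to 77 with arrays left out; with median centring 32 were lower. A detection rule of all 8 arrays left 12 Hox genes. Single genes were followed for the 12 named ones. Among them signs changed for Hoxa7 without replicate 2 (0.048; range with arrays left out -0.42 to 0.048), Hoxb6 on slide 1 alone or without replicate 4 (-0.18; range -0.18 to 0.83) and without CD9high replicate 4 (-0.024), and Hoxb7 without CD9high replicate 4 (-0.016; range -0.016 to 0.35). Of the other tested Hox genes, Hoxa2 differed by -0.33 and Hoxc8 by 0.048 on slide 1, also a change of sign. The fits with arrays left out had fewer samples, and the fit without the filter tested more genes. With both arrays of replicate 2 left out, 183 of all genes were higher in CD9high. The Hoxd8 call held there, with a limma adjusted p of 0.0324. Causes of the losses were not tested. Dim probes limit what the arrays can show.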
